A study of Tachysurus fulvidraco x Tachysurus vachelli with 6 samples.

Results

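The skin genes described here make up the ubiquitin system as far as it could be picked out by protein description: every gene of the deposited table whose description contained the word ubiquitin or the words tripartite motif, leaving out zinc finger and ribosomal entries, of which there were 0 among the matches. The rule found 52 of the 2451 genes used. By their descriptions, 29 of them were ligases (E3), 10 were tripartite motif (TRIM) proteins, 7 were deubiquitinases, 3 were conjugating enzymes (E2) and 3 were ubiquitin or ubiquitin-like proteins, and 0 were activating enzymes (E1). The counts in the table are a small share of the mapped reads, so it may hold only some of the genes expressed, and every count and share here refers to the genes in it.

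RNA of juvenile hybrid yellow catfish, bred from a Tachysurus fulvidraco mother and a P. vachellii father, was sequenced from skin of the left side behind the dorsal fin. The 16-h transport group (3 libraries) came from fish that were starved and then kept for 16 h in sealed bags of water and oxygen on a shaker that imitated a vehicle, and the control group (3 libraries) came from untreated fish of the recirculating tanks. The study found that ammonia and nitrite nitrogen rose in the water of the bags and not in the control water. Whether the control fish were starved as well is not stated in the study's methods. Transport, confinement in a bag, these changes of the water and starvation therefore cannot be told apart. It is also not stated whether a library held 1 fish or a pool, and the p-values measure only the spread between these libraries.

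Ubiquitin is a small protein that is joined to other proteins as a tag. An E1 enzyme activates it, an E2 enzyme carries it, and an E3 ligase chooses the protein that receives it; deubiquitinases take the tag off again. Some chains of ubiquitin send a protein to the proteasome to be broken down, whereas other chains act as scaffolds in signalling, DNA repair and membrane traffic. TRIM proteins are a family of mostly RING-type ligases, several of which act in antiviral and inflammatory signalling in vertebrates. The outer layer of fish skin is a living epithelium with mucous cells, and the dermis and then muscle lie beneath it.

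The counts of the table came to 3632651 to 4487002 per library. The libraries differed in composition: the TMM factors, edgeR's estimate of how far a few abundant genes distort the scale of a library, were 1.17, 1.05 and 1.13 in transport replicates 1, 2 and 3, against 0.712, 0.968 and 1.04 in control replicates 1, 2 and 3. These factors moved the median log2 fold change of all genes by -0.30, so both scales are given below: FPKM as deposited, and scaled FPKM, which is FPKM divided by the TMM factor. Muscle transcripts were abundant in the skin samples. The 10 genes of the muscle list, 4 of them myosin light chain kinases, together had 2455, 4439 and 3259 FPKM in the transport libraries, against 11059, 6565 and 2262 FPKM in the control libraries. A large part of each sum was 1 gene, LOC113636033 (myosin regulatory light chain 2-like), with 1784, 2852 and 2214 FPKM against 9075, 3018 and 1467 FPKM. The list did not move as a whole, as 4 of its 9 tested genes had estimates above 0 and 5 below. The myosin heavy chain-like gene LOC113635338, on the higher side, had 21.8, 9.04 and 15.4 FPKM in the transport libraries, against 3.74, 3.06 and 10.4 FPKM in the control libraries. The keratinocyte gene evpl (envoplakin) had 47.7, 30.4 and 41.7 FPKM in the transport libraries, against 3.93, 11.9 and 19.7 FPKM in the control libraries, while the other gene of that list, the plakophilin-3-like LOC113636783, had 2.55, 6.92 and 4.31 FPKM in the transport libraries, against 4.85, 3.78 and 3.73 FPKM in the control libraries. The mucous cell gene LOC113635236 (mucin-2-like) had 8.59, 0.347 and 5.66 FPKM in the transport libraries, against 0.0384, 0 and 0.0223 FPKM in the control libraries. The other mucous gene, muc15, had 36.7, 29.8 and 29.4 FPKM in the transport libraries, against 26.9, 16.3 and 40.5 FPKM in the control libraries. The pigment cell gene tyrp1 had 0.511, 1.48 and 0.828 FPKM in the transport libraries, against 6.17, 4.80 and 2.07 FPKM in the control libraries. The other pigment gene, mlph, had 1.04, 1.73 and 1.31 FPKM in the transport libraries, against 1.81, 2.33 and 1.54 FPKM in the control libraries. The part of these cell types in the values below was not tested. The 4 leukocyte genes together had at most 1.25 FPKM in any library, and 0 of them were high enough to be tested.

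Of the 52 genes, 42 reached a mean of 0.5 FPKM over the 6 libraries and were tested, among 1620 genes in all. Their levels were ordinary for this table, with a median of 5.46 FPKM, beside 5.28 FPKM over all genes tested. A level above 10 FPKM was found for 14 of them and a level below 5 FPKM for 20. The highest was the polyubiquitin-C-like gene LOC113634173, and next came LOC113634789 (TRIM16-like), usp14, usp28, ubl3 and ube2a.

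**Figure D1:**
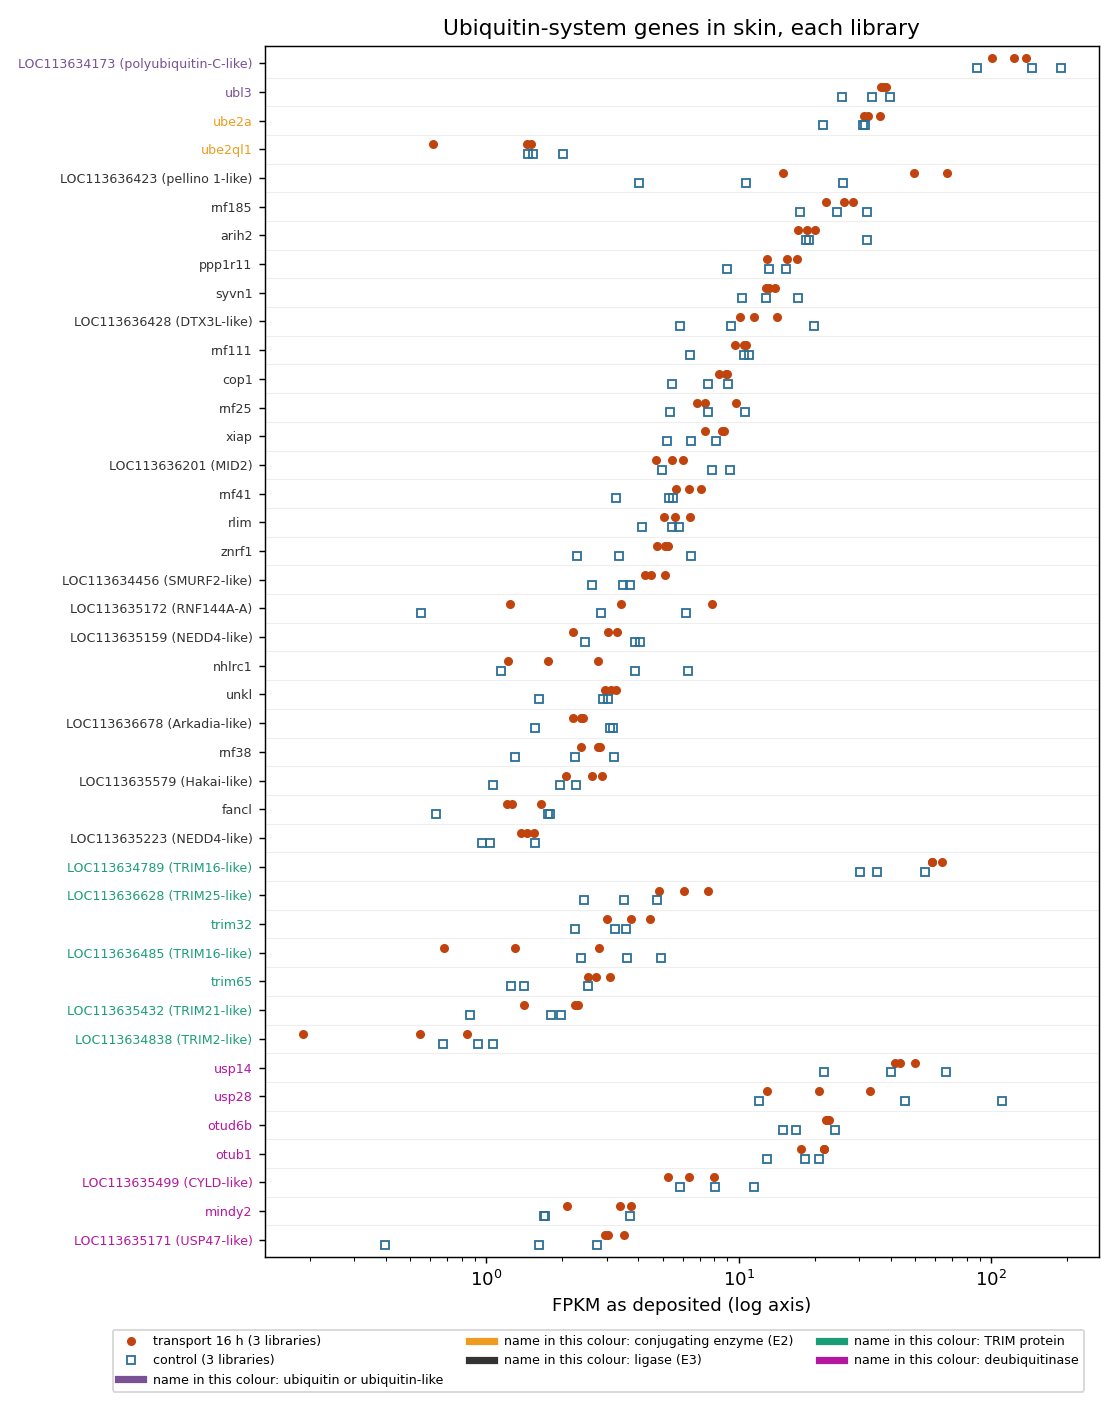
FPKM of each library on a log axis for the 42 tested genes of the ubiquitin system, grouped by role; filled points are the 3 transport libraries and open squares the 3 control libraries. In most rows the points of both groups lie among each other, and usp28, nhlrc1, LOC113635172 and LOC113636423 are among the rows with a wide spread.

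No gene of the ubiquitin system passed the test across all genes. With the quasi-likelihood test of edgeR and an adjusted p below 0.05 as the call, 0 of the 42 genes were higher and 0 were lower in the transport group, where 0.370% and 0.247% of all genes tested were called higher and lower. The smallest adjusted p of a ubiquitin-system gene was 0.123. Before adjustment, a p below 0.05 was reached by 0 genes on the higher side and 7 on the lower side, while 7.72% of all genes tested were higher and 9.14% lower at that level. Under a fold and p threshold, which asks for a mean FPKM ratio whose log2 is 1 or more in size and for an unadjusted p under 0.05 and leaves out the FPKM minimum that the study also set, 0 genes were higher (4.51% of all genes tested) and 1 was lower (3.58% of all genes tested). DESeq2 called 0 genes higher and 2 lower at an adjusted p under 0.05, beside 4.38% and 5.12% of all genes tested. With limma on log2(FPKM + 0.5) 0 genes were called, beside 0.617% of all genes tested called higher and 0.123% called lower. The 7 lower genes were 16.7% of the 42, above the 9.14% of all genes tested. Without TMM factors 0 of the 42 were lower at that level, where 4.07% of all genes tested were so.

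The median estimate was small, and 5 of the 42 estimates were beyond 1 in size on the log2 scale. The median log2 fold change, transport over control, was -0.067 over the 42 genes and -0.020 over all genes tested. Of the 42 estimates 15 were above 0 and 27 below, where 777 and 843 of all 1620 genes tested were so. Without TMM factors the medians were 0.24 and 0.27, and 29 of the 42 estimates were above 0, where 1196 of all 1620 genes tested were so. The 95% interval of the log2 fold change lay wholly between -1 and 1 for 27 of the 42 genes (64.3%), against 52.8% of all genes tested. For these 27 a change of 2-fold or more in either direction lay outside the interval, and for the other 15 it did not. The summed scaled FPKM of the 52 genes was 546, 539 and 540 in the transport libraries, against 605, 706 and 605 in the control libraries. Without the polyubiquitin-C-like gene and usp28 the sums were 417, 411 and 413 in the transport libraries, against 418, 441 and 413 in the control libraries, so those 2 genes held most of the gap. On the unscaled FPKM the sums overlapped, with 641, 567 and 608 in the transport libraries, against 431, 683 and 631 in the control libraries.

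**Figure D2:**
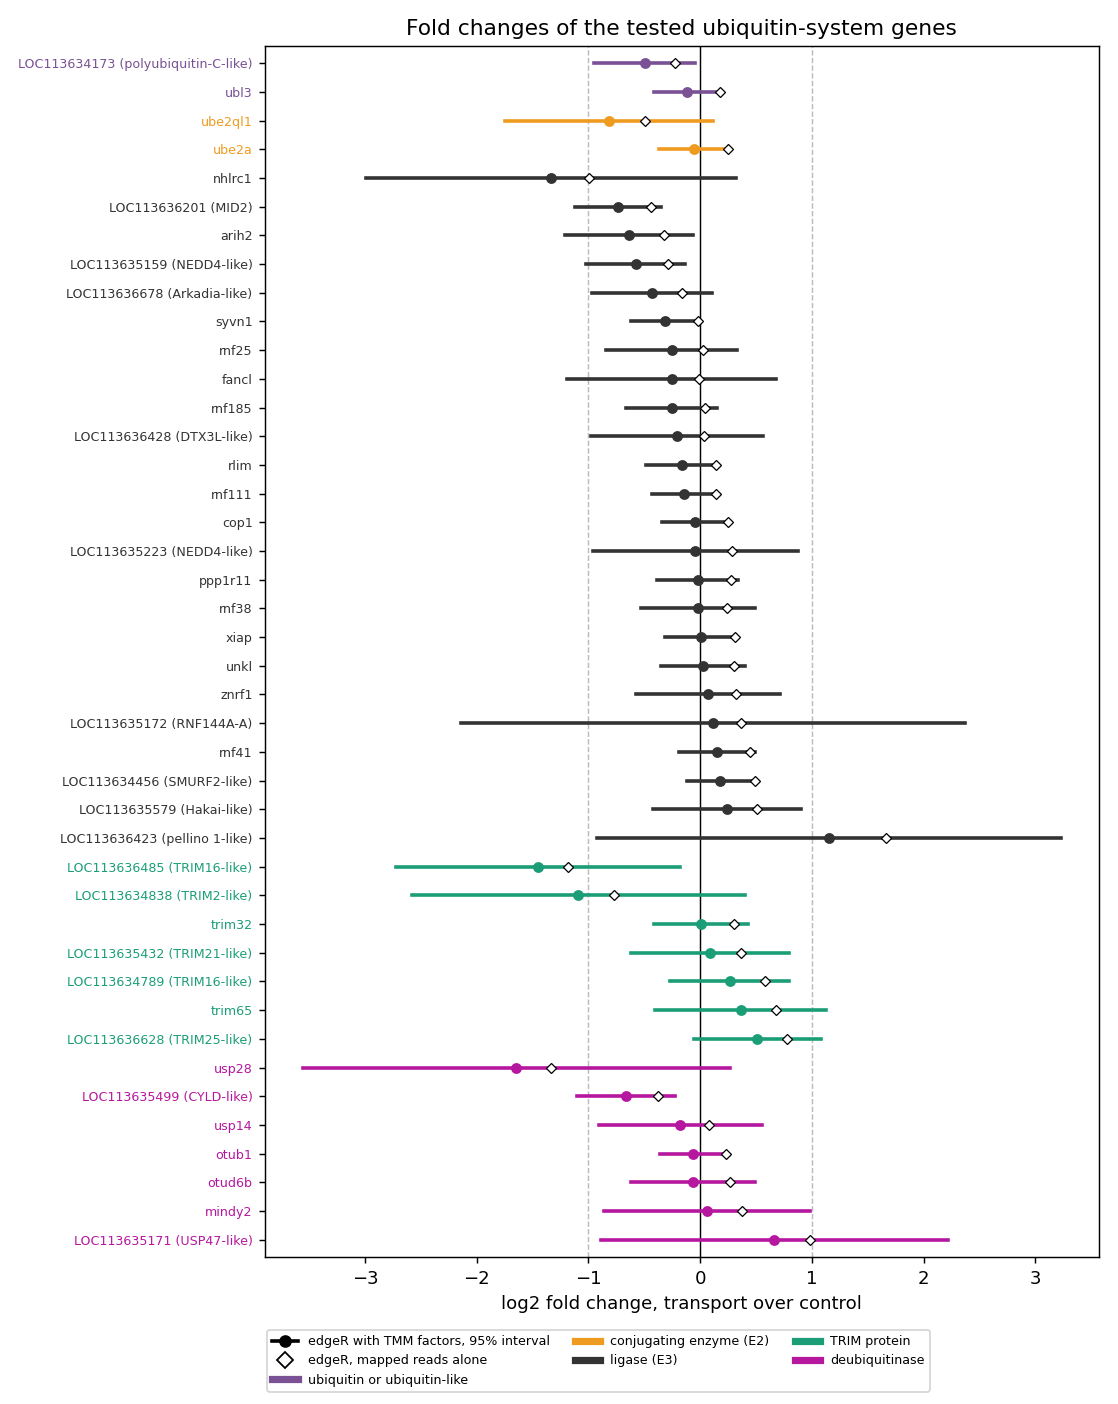
Log2 fold change of the 42 tested genes, transport over control, from edgeR with TMM factors (filled points, with bars for the 95% interval) and with mapped reads alone (open diamonds); dashed lines mark -1 and 1. Most intervals cross 0, the 7 that do not all lie below 0, and the diamonds sit to the right of the points in every row.

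Ubiquitin itself is encoded as chains of repeats that are cut into single units, and polyubiquitin-C is the form best known from stressed vertebrate cells. The polyubiquitin-C-like gene LOC113634173 had 137, 101 and 123 FPKM in transport replicates 1, 2 and 3, against 87.6, 145 and 188 FPKM in control replicates 1, 2 and 3. The deposited values overlapped, while the scaled values did not: 117, 95.8 and 109 scaled FPKM in the transport libraries stood against 123, 150 and 180 in the control libraries. For this gene the log2 fold change was -0.50 ± 0.19 (SE), with a 95% interval of -0.95 to -0.049 and an edgeR adjusted p of 0.252. The gene on its own took 21.4%, 17.8% and 20.2% of the summed FPKM of the 52 genes in the transport libraries, against 20.3%, 21.3% and 29.8% in the control libraries. The other polyubiquitin gene, ubb, lay within the span of LOC113634173 on the opposite strand (scaffold NW_020848141.1, 765185 to 766525, within 725010 to 771886) and had only 3, 21 and 0 counts in the transport libraries, against 0, 10 and 8 counts in the control libraries. Repeats of this kind are nearly identical, and how the counting divided reads between these genes is not stated by the sources at hand, so both values are uncertain. The ubiquitin-like gene ubl3 in mammals encodes a membrane-anchored protein that sorts cargo into extracellular vesicles. Its deposited values varied little in the transport group, at 36.7, 37.2 and 38.3 FPKM, against 25.5, 33.7 and 39.6 FPKM in the control group. After scaling the control libraries lay closer together than the transport libraries. The scaled values were 31.3, 35.3 and 34.0 in the transport libraries, against 35.8, 34.9 and 38.0 in the control libraries. For ubl3 the log2 fold change was -0.12 ± 0.12 (SE), and it was 0.18 without TMM factors.

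Of the conjugating enzymes, ube2a is the E2 that works with RAD18 when replication meets damaged DNA. It had 32.5, 36.1 and 31.4 FPKM in the transport libraries, against 21.5, 31.1 and 31.6 FPKM in the control libraries, and its log2 fold change was -0.051 ± 0.13 (SE), turning to 0.25 without TMM factors. The E2Q-like gene ube2ql1 was far lower in level, with 1.50, 1.45 and 0.613 FPKM in the transport libraries, against 1.47, 2.01 and 1.53 FPKM in the control libraries. Its scaled FPKM did not overlap, at 1.28, 1.38 and 0.545 in the transport libraries, against 2.06, 2.08 and 1.47 in the control libraries. For ube2ql1 the log2 fold change was -0.82 ± 0.39 (SE), the edgeR adjusted p was 0.334, and the 95% interval of -1.75 to 0.12 included 0.

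Among the 42 tested genes, 6 had higher deposited FPKM in every transport library than in any control library and 0 had lower, where 24.1% and 3.70% of all genes tested did so. On the scaled FPKM the counts were 1 higher and 8 lower, where 13.0% and 10.9% of all genes tested did so. The ligases and TRIM proteins held most of both groups, and the genes described next were chosen after their values were seen, apart from rnf185, LOC113636423, LOC113634789, LOC113636628, usp14 and usp28, which are the most abundant of their roles.

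Among the ligases, 4 of the 24 tested were lower at an unadjusted p under 0.05 and 0 were higher, where 9.14% and 7.72% of all genes tested were so. Without TMM factors 0 ligases were lower at that level, where 4.07% of all genes tested were so. The lowest p of all belonged to LOC113636201, described as the ligase MID2, a TRIM-family protein that binds microtubules in mammals. It had 6.02, 4.71 and 5.43 FPKM in transport replicates 1, 2 and 3, against 4.95, 9.19 and 7.84 FPKM in control replicates 1, 2 and 3. Control replicate 1, the library with the lowest TMM factor, sat among the transport libraries on this scale and above them after scaling. The scaled values were 5.12, 4.48 and 4.83 in the transport libraries, against 6.95, 9.50 and 7.52 in the control libraries. MID2 had a log2 fold change of -0.74 ± 0.16 (SE), with a 95% interval of -1.12 to -0.35. The adjusted p was 0.123 in edgeR and 0.0012 in DESeq2, which called the gene lower. Without TMM factors the log2 fold change was -0.44 and the edgeR adjusted p 0.408.

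LOC113635159 is a NEDD4-like ligase, of the HECT family that marks channels and receptors at the cell surface for uptake. It had 3.28, 3.03 and 2.20 FPKM in the transport libraries, against 2.45, 3.87 and 4.06 FPKM in the control libraries, and the log2 fold change was -0.58 ± 0.18 (SE; edgeR adjusted p = 0.210). A second NEDD4-like gene, LOC113635223, lay 10946 bases away on the same scaffold and strand. It had 1.55, 1.44 and 1.37 FPKM in the transport libraries, against 1.04, 1.56 and 0.965 FPKM in the control libraries, and its log2 fold change was -0.043 ± 0.38 (SE). The estimates of these neighbours differed in size, but their difference was not tested.

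The gene arih2 encodes a RING-between-RING ligase that works together with cullin-5 complexes. It had 18.6, 20.1 and 17.1 FPKM in the transport libraries, against 18.4, 32.2 and 19.0 FPKM in the control libraries. Only control replicate 2 stood clear of the rest on this scale. After scaling, control replicates 1 and 2 lay above all transport libraries. The scaled values were 15.8, 19.1 and 15.2 in the transport libraries, against 25.9, 33.3 and 18.2 in the control libraries. The log2 fold change was -0.64 ± 0.24 (SE, edgeR adjusted p = 0.252), and it became -0.42 without control replicate 2. The gene syvn1 encodes synoviolin, the ligase of the endoplasmic reticulum that disposes of misfolded proteins. Its values were 13.9, 12.8 and 13.2 FPKM in the transport libraries, against 10.3, 12.8 and 17.2 FPKM in the control libraries, so the means differed little, at 13.3 ± 0.596 FPKM in the transport group and 13.4 ± 3.48 FPKM in the control group (SD, n = 3 each). The log2 fold change of syvn1 was -0.31 ± 0.13 (SE; edgeR adjusted p = 0.281) with TMM factors and -0.016 without them, and limma on the deposited FPKM gave 0.015. The other ligase of this compartment, rnf185, had 28.4, 22.2 and 26.0 FPKM in the transport libraries, against 17.4, 32.3 and 24.4 FPKM in the control libraries. The estimate for rnf185 was a log2 fold change of -0.25 ± 0.17 (SE), and it was 0.048 without TMM factors.

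**Figure D3:**
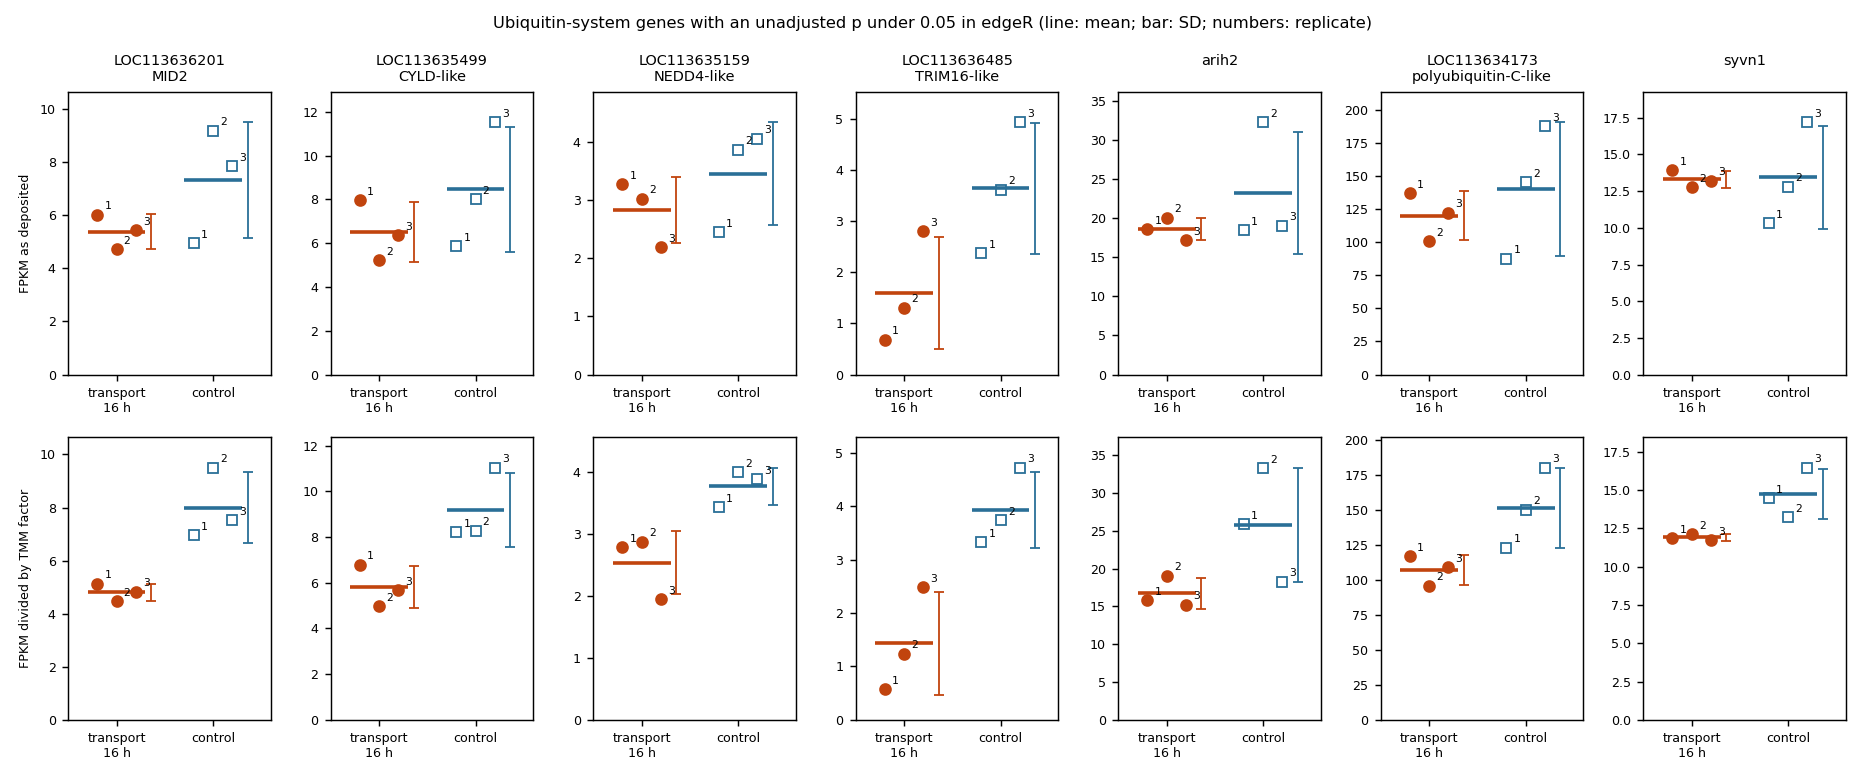
The 7 genes with an unadjusted p under 0.05 in edgeR, as deposited FPKM (upper row) and as FPKM divided by the TMM factor (lower row), for the transport libraries (filled points, left in each panel) and the control libraries (open squares, right); lines are means, bars are SD and numbers are replicates. In the upper row the groups overlap in every panel, and in the lower row they are apart in every panel but that of arih2.

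Without TMM factors 17 of the 24 tested ligases had estimates above 0, where 1196 of all 1620 genes tested were so. On the deposited values 2 ligases were higher in every transport library, where 24.1% of all genes tested were so. LOC113634456 is SMURF2-like, a HECT ligase of the kind that brings down receptors and SMAD proteins of the TGF-beta pathway. It had 5.11, 4.25 and 4.49 FPKM in the transport libraries, against 2.61, 3.72 and 3.48 FPKM in the control libraries. Of the 42 tested genes this was the 1 that was higher in every transport library on both scales, though by a narrow margin after scaling: 4.35, 4.04 and 3.99 scaled FPKM in the transport libraries stood against 3.67, 3.85 and 3.33 in the control libraries. Its log2 fold change was 0.18 ± 0.13 (SE), with a 95% interval of -0.12 to 0.48 and an edgeR adjusted p of 0.487. The gene rnf41, whose product NRDP1 limits ErbB3 receptors in mammals, had 7.10, 5.63 and 6.34 FPKM in the transport libraries, against 3.27, 5.28 and 5.48 FPKM in the control libraries, with a log2 fold change of 0.15 ± 0.14 (SE).

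Arkadia (rnf111) clears inhibitors of TGF-beta signalling, and an Arkadia-like gene, LOC113636678, began 846 bases after it on the same strand. For rnf111 the values were 10.5, 9.63 and 10.7 FPKM in the transport libraries, against 6.40, 10.5 and 11.0 FPKM in the control libraries, and for LOC113636678 they were 2.41, 2.21 and 2.37 FPKM in the transport libraries, against 1.56, 3.17 and 3.10 FPKM in the control libraries. On this deposited scale the transport libraries lay close together and control replicate 1 was the lowest library for both genes. After scaling, control replicate 1 lay above all transport libraries for LOC113636678, as did the other control libraries. For rnf111 the scaled value of control replicate 1 lay above transport replicate 1 and below transport replicates 2 and 3. The log2 fold changes were -0.14 ± 0.12 (SE) for rnf111 and -0.44 ± 0.22 (SE) for LOC113636678, with edgeR adjusted p of 0.560 and 0.367.

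For 13 further ligases the log2 fold change lay between -0.26 and 0.24, with means of 1.32 to 13.8 FPKM and adjusted p of 0.551 or more in edgeR; rnf111 and LOC113635223 are among them. They include xiap, which blocks caspases, with 8.72, 7.33 and 8.56 FPKM in the transport libraries, against 5.20, 6.47 and 8.13 FPKM in the control libraries. They also include cop1, which marks transcription factors for breakdown, fancl, the ligase of the Fanconi anaemia DNA repair complex, and LOC113635579, which is Hakai-like, a ligase of E-cadherin in mammals. The Hakai-like gene had 2.06, 2.62 and 2.88 FPKM in the transport libraries, against 1.07, 2.27 and 1.97 FPKM in the control libraries. The DTX3L-like gene LOC113636428, whose mammalian counterpart acts in interferon responses and DNA repair, had 14.1, 10.1 and 11.5 FPKM in the transport libraries, against 5.83, 9.28 and 19.8 FPKM in the control libraries. Its control libraries spanned a 3.40-fold range, and those of the transport group a 1.40-fold range.

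MID2, a TRIM-family protein with a log2 fold change of -0.74, was counted with the ligases by its description and is left out here. Of the 7 genes tested that were described as TRIM proteins, 5 had estimates above 0 and 2 below, where all 1620 genes tested had 777 and 843. The median log2 fold change of the 7 was 0.088. The most abundant was LOC113634789, a TRIM16-like gene; in mammals TRIM16 acts in the autophagy of damaged organelles. It had 63.5, 58.1 and 58.3 FPKM in the transport libraries, against 35.3, 30.3 and 54.7 FPKM in the control libraries. The groups did not overlap on the deposited FPKM but did after scaling, where the values were 54.1, 55.2 and 51.8 in the transport libraries, against 49.6, 31.3 and 52.4 in the control libraries. The log2 fold change was 0.26 ± 0.22 (SE), with a 95% interval of -0.27 to 0.80 and an edgeR adjusted p of 0.564. LOC113636628 is TRIM25-like, and mammalian TRIM25 promotes the RNA sensor RIG-I. It had 4.82, 7.56 and 6.09 FPKM in the transport libraries, against 2.45, 3.52 and 4.76 FPKM in the control libraries, apart by a small margin. The estimate was a log2 fold change of 0.51 ± 0.24 (SE), with a 95% interval of -0.057 to 1.08 and an edgeR adjusted p of 0.328. Without TMM factors it was 0.78 and LOC113636628 was the 1 gene of the ubiquitin system that was higher at an unadjusted p under 0.05, where 13.9% of all genes tested were higher and 4.07% lower. The gene trim65, whose mammalian product acts on the RNA sensor MDA5, had 2.54, 2.71 and 3.10 FPKM in the transport libraries, against 1.42, 2.52 and 1.25 FPKM in the control libraries, with a log2 fold change of 0.36 ± 0.32 (SE).

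The second TRIM16-like gene, LOC113636485, lay on another scaffold and had an estimate of opposite sign. It had 0.679, 1.30 and 2.80 FPKM in the transport libraries, against 2.37, 3.61 and 4.93 FPKM in the control libraries. Transport replicate 3 overlapped with control replicate 1 on this scale, and after scaling the values were 0.578, 1.24 and 2.48 in the transport libraries, against 3.32, 3.74 and 4.72 in the control libraries. The counts behind them were low, at 54, 112 and 263 in the transport libraries, against 227, 278 and 413 in the control libraries. LOC113636485 had a log2 fold change of -1.45 ± 0.53 (SE), with a 95% interval of -2.72 to -0.18 and an edgeR adjusted p of 0.241. This was the 1 gene that passed the fold and p threshold, at a level below the study's FPKM minimum, and it no longer passed when transport replicate 1, transport replicate 2, control replicate 2 or control replicate 3 was left out. The TRIM2-like gene LOC113634838 was the lowest TRIM gene tested, with 0.188, 0.839 and 0.545 FPKM in the transport libraries, against 0.924, 1.06 and 0.672 FPKM in the control libraries. This gene had a log2 fold change of -1.09 ± 0.62 (SE; edgeR adjusted p = 0.413). The others, trim32 and the TRIM21-like gene LOC113635432, had log2 fold changes of 0.0072 and 0.088.

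Among the 7 deubiquitinases, 1 was lower at an unadjusted p under 0.05 and 0 were higher, where 9.14% and 7.72% of all genes tested were so. LOC113635499 is CYLD-like, and CYLD restrains NF-kappa-B signalling by removing non-degradative chains from its adaptors. It had 7.96, 5.23 and 6.37 FPKM in the transport libraries, against 5.86, 8.02 and 11.5 FPKM in the control libraries. As for MID2, control replicate 1 lay among the transport libraries on the deposited scale, and the scaled values were 6.78, 4.97 and 5.66 in the transport libraries, against 8.22, 8.28 and 11.0 in the control libraries. The log2 fold change was -0.66 ± 0.18 (SE), with a 95% interval of -1.11 to -0.22. The adjusted p was 0.173 in edgeR and 0.040 in DESeq2, and without TMM factors the log2 fold change was -0.37 with an edgeR adjusted p of 0.515.

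The gene usp14 encodes a deubiquitinase bound to the proteasome. It had 41.6, 49.7 and 43.6 FPKM in the transport libraries, against 21.7, 65.9 and 40.2 FPKM in the control libraries, whose values lay on both sides of the transport libraries. For usp14 the log2 fold change was -0.18 ± 0.30 (SE). The USP47-like gene LOC113635171, related to a deubiquitinase of base excision repair, had 3.04, 3.51 and 2.95 FPKM in the transport libraries, against 1.62, 0.398 and 2.75 FPKM in the control libraries. Its control libraries spanned a 6.92-fold range, and the log2 fold change was 0.67 ± 0.65 (SE; edgeR adjusted p = 0.617). The remaining 3, otud6b, otub1 and mindy2, had log2 fold changes between -0.067 and 0.061 with edgeR adjusted p of 0.807 or more; otud6b was almost constant in the transport libraries, at 22.1, 22.8 and 22.3 FPKM, against 16.8, 24.0 and 14.9 FPKM in the control libraries.

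In several genes the libraries of a group differed several-fold. Among them was usp28, a deubiquitinase that in mammals stabilises c-Myc, with 13.0, 33.2 and 20.8 FPKM in transport replicates 1, 2 and 3, against 45.4, 110 and 12.1 FPKM in control replicates 1, 2 and 3. On this deposited scale control replicates 1 and 2 were above all transport libraries, and control replicate 3 was below them all. After scaling, control replicate 3 lay just above transport replicate 1, at 11.6 against 11.1 scaled FPKM. The log2 fold change was -1.64 ± 0.79 (SE), with a 95% interval of -3.55 to 0.27 and an edgeR adjusted p of 0.341. The gene nhlrc1 encodes malin, a ligase of glycogen metabolism. It had 1.22, 2.76 and 1.75 FPKM in the transport libraries, against 3.87, 6.29 and 1.15 FPKM in the control libraries, and its log2 fold change was -1.34 ± 0.69 (SE; edgeR adjusted p = 0.367).

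On the deposited FPKM the 6 libraries fell in the same order for usp28 and nhlrc1. From highest to lowest this was control replicates 2 and 1, transport replicates 2, 3 and 1, and control replicate 3. After scaling, control replicate 3 lay above transport replicate 1 for both genes, with 1.10 against 1.04 scaled FPKM for nhlrc1. Some muscle genes followed a like order on the deposited FPKM and others did not. The troponin T-like gene LOC113635959 had 198, 526 and 332 FPKM in the transport libraries, against 396, 1029 and 164 FPKM in the control libraries, and the myosin light chain 1-like gene LOC113636534 had 321, 716 and 491 FPKM in the transport libraries, against 1396, 2238 and 556 FPKM in the control libraries. Of the 10 muscle genes, 9 were tested, with 4 estimates above 0 and 5 below. At an adjusted p under 0.05, edgeR called 0 of them. DESeq2 called 0 of them higher and 2 lower, beside 4.38% and 5.12% of all genes tested. The part of muscle RNA in the values of usp28 and nhlrc1 was not tested, and in bulk skin fewer cells of a type cannot be told apart from less RNA per cell. When control replicate 3 was left out, both genes passed the fold and p threshold as lower, with edgeR adjusted p of 0.069 for usp28 and 0.082 for nhlrc1. The share of all genes past the fold and p threshold in that fit is not given here. At an unadjusted p alone, more genes passed in general without that library. At an unadjusted p under 0.05 in edgeR, 195 of the 1620 genes tested were then higher and 206 lower. With all libraries these counts were 125 and 148.

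The spread of LOC113636423, a pellino 1-like gene, ran differently. Pellino 1 is a ligase of Toll-like and interleukin-1 receptor signalling in mammals. The gene had 67.0, 15.0 and 49.2 FPKM in the transport libraries, against 26.0, 4.04 and 10.7 FPKM in the control libraries. Replicate 2 was the lowest of each group, and transport replicate 2 lay below control replicate 1. Its log2 fold change was 1.15 ± 0.86 (SE), the highest of the ubiquitin system, with a 95% interval of -0.93 to 3.23 and an edgeR adjusted p of 0.525. Without control replicate 1 the log2 fold change was 2.44 and the gene passed the fold and p threshold as higher, with an edgeR adjusted p of 0.220. It also passed with the replicate block (log2 fold change 1.50), although whether replicate numbers pair the samples is not stated. With limma it passed at each of 3 pseudocounts, but these were fits of the same deposited FPKM, without TMM factors. In those fits, 251 to 263 of the 1620 genes were higher with p below 0.05 before adjustment, and 52 to 54 were lower. LOC113635172, described as the ligase RNF144A-A, had 1.24, 7.83 and 3.40 FPKM in the transport libraries, against 2.84, 0.551 and 6.20 FPKM in the control libraries. Its log2 fold change of 0.12 ± 0.94 (SE) took either sign as libraries were left out.

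**Figure D4:**
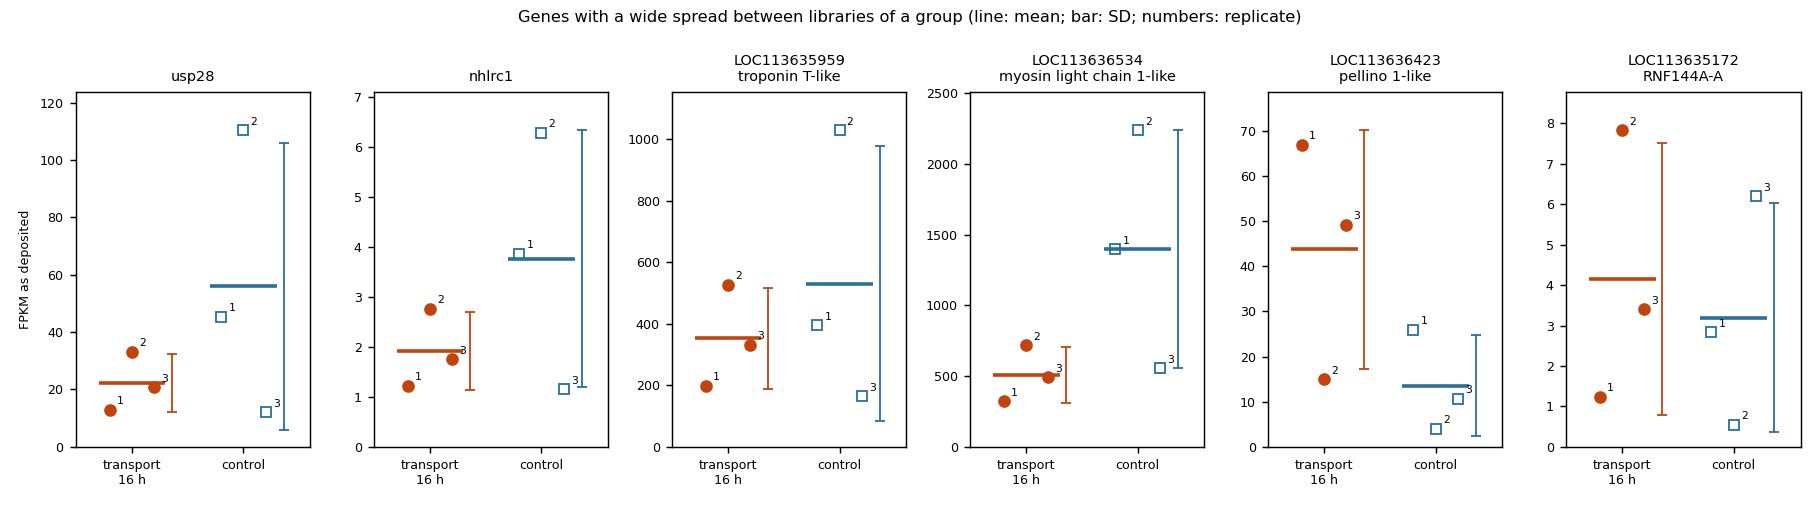
Deposited FPKM on linear axes that start at 0 for usp28, nhlrc1, the muscle genes LOC113635959 and LOC113636534, and the ligases LOC113636423 and LOC113635172, with transport libraries on the left and control libraries on the right of each panel; lines are means, bars are SD and numbers are replicates. Control replicate 2 is the highest library and control replicate 3 is far below it in the first 4 panels, and the last 2 panels have other orders.

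The replicates of the transport group lay closer together than those of the control group. The median SD of log2(scaled FPKM + 0.5) over the 42 genes was 0.15 in the transport group and 0.26 in the control group, and 30 of the 42 genes (71.4%) had the smaller SD in the transport group. Over all genes tested the medians were 0.18 in the transport group and 0.31 in the control group, with 72.2% smaller in the transport group, so the ubiquitin system was like the rest of the table in this.

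The wider pathway was read from gene lists set apart from the ubiquitin-system genes. In edgeR 0 genes of any list were called at an adjusted p under 0.05. DESeq2 called 1 higher and 1 lower in the list of cullins and their adaptors, beside 4.38% and 5.12% of all genes tested. It called 0 genes in the other pathway lists. Of the 6 proteasome genes tested, 0 passed an unadjusted p under 0.05, where 7.72% of all genes tested were higher and 9.14% lower. Their log2 fold changes lay between -0.26 and 0.35. Without TMM factors 1 was higher and 0 lower at that level, where 13.9% and 4.07% of all genes tested were so. The 20S subunit gene psmb3 had 87.6, 86.4 and 82.4 FPKM in the transport libraries, against 43.0, 61.3 and 73.2 FPKM in the control libraries, and was 1 of 4 proteasome genes with higher deposited FPKM in every transport library, where 24.1% of all genes tested were so; on the scaled FPKM there were 2, where 13.0% of all genes tested were so. Its log2 fold change was 0.24 ± 0.13 (SE; edgeR adjusted p = 0.371). Of the 23 genes tested for cullins and the adaptors of cullin-RING ligases, 5 had an unadjusted p under 0.05, 3 of them higher and 2 lower, where 7.72% and 9.14% of all genes tested were so. These were the kctd15-like gene LOC113636199, cul5 and keap1, the adaptor that holds NRF2 in check, on the higher side, and fbxo25 and fbxw4 on the lower side. Without TMM factors the counts in this list were 5 higher and 0 lower, where 13.9% and 4.07% of all genes tested were so. LOC113636199 had 2.96, 3.95 and 2.81 FPKM in the transport libraries, against 0.645, 1.42 and 1.03 FPKM in the control libraries, with a log2 fold change of 1.37 ± 0.31 (SE; edgeR adjusted p = 0.128). For cul5, the scaffold on which ARIH2 works in mammals, the values were 5.54, 4.70 and 4.30 FPKM in the transport libraries, against 2.13, 2.31 and 3.43 FPKM in the control libraries, with a log2 fold change of 0.58 ± 0.17 (SE; edgeR adjusted p = 0.190). Among 8 other RING proteins tested, 1 was lower at an unadjusted p under 0.05 and 0 were higher, where 9.14% and 7.72% of all genes tested were so. The lower gene was rnf145, with 1.49, 1.19 and 1.11 FPKM in the transport libraries, against 2.32, 1.71 and 1.87 FPKM in the control libraries. The lists for SUMO and UFM1 (3 tested), protein extraction (1 tested) and autophagy (2 tested) had 0 genes at an unadjusted p under 0.05. Beside them, 7.72% of all genes tested were higher and 9.14% lower at that level.

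The 10 ubiquitin-system genes that were not tested had mean levels of at most 0.179 FPKM and at most 14.2 counts a library. Of these, rnf182, the RNF182-like gene LOC113634214 and the second SMURF2-like gene LOC113634458 had 0 counts in all 6 libraries, which allows up to 3 counts in each, for counting error alone. LOC113634458 lay within the span of LOC113634456 on the opposite strand (scaffold NW_020848156.1, 1885786 to 1887886). The gene ccnb1ip1, which acts in meiotic recombination in mammals, had 6, 4 and 5 counts in the transport libraries and 0 counts in every control library, too few for a fold change. The E2 gene ube2o had 0, 12 and 0 counts in the transport libraries, against 6, 0 and 0 counts in the control libraries. The TRIM29-like gene LOC113635126, the TRIM25-like gene LOC113635540, the TRIM39-like gene LOC113636223 and rnf165 were likewise at 0 counts in at least 1 library and at no more than 32 counts in any.

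The 52 genes were scattered in position and shared some annotation. They lay on 26 scaffolds, with 8 on NW_020848201.1, and 22 of them had only a LOC number for a name. The table marked 8 of the proteins as low quality predictions, among them the polyubiquitin-C-like gene, syvn1, nhlrc1, rnf41 and the NEDD4-like gene LOC113635159. It listed 13 of the 52 under the KEGG pathway of ubiquitin-mediated proteolysis. The most frequent GO terms were metal ion binding, with 27 of the 52, and ubiquitin protein ligase activity, with 21.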

How the data were processed

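Poly(A) RNA of the 6 skin libraries was sequenced by the authors as paired reads, trimmed with Cutadapt, aligned with HISAT and assembled with StringTie. The study's methods name a human reference genome for the alignment, whereas its results speak of reads mapped to the yellow catfish genome. Build of the catfish genome, use of strand and versions are not given by any source used here. Coordinates are as the table has them, and its scaffolds are those of Tachysurus fulvidraco. The deposited table holds read counts, which were not normalized, and FPKM, which the authors computed with StringTie per transcript length and mapped fragments. It had 2452 rows, 1 of them incomplete and dropped; 12 columns of samples not mapped here were not used. Counts added up to between 12.0% and 12.5% of the study's mapped reads, and those mapped reads served as library sizes.

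Genes with a mean of at least 0.5 FPKM were tested, 1620 in all. The test was edgeR 4.0.16 (R 4.3.3) with TMM factors and condition as the only term, and Benjamini-Hochberg adjustment over all genes tested; SE came from the fold change and F statistic. The code was checked on simulated counts. DESeq2 1.42.0 and limma 3.58.1 on log2(FPKM + 0.5) were among 17 alternatives, 2 of them added after seeing the data. Genes were named if called, if at an unadjusted p under 0.05 with FPKM not overlapping, if among the 2 most abundant of a role, or if at 0 counts in 1 group and at a mean of 10 or more in the other; further genes were picked with their values in view. Genes and lists alike had been chosen with earlier results of these data known. No sequences are shown.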

Additional observations from a re-analysis of the deposited data

How the results depend on the processing

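The count of 0 genes called at an adjusted p under 0.05 held in every alternative but DESeq2, which called 2, LOC113636201 and LOC113635499. Past the fold and p threshold, where 1 gene stood (LOC113636485, lower), there were 0 with mapped reads alone, 2 lower with DESeq2 (with usp28), 2 with limma at each pseudocount (0.5, 0.1 and 1) and 2 with the replicate block (both times LOC113636485, lower, and LOC113636423, higher), and 0 to 2 as single libraries were left out: 0 without transport replicate 1, transport replicate 2 or control replicate 2, and 2 without control replicate 1 (LOC113636423 and LOC113636485) or control replicate 3 (usp28 and nhlrc1). The shares of all genes past the fold and p threshold in these alternatives are not given here. At an unadjusted p under 0.05, 7 genes stood, all lower, beside 125 higher and 148 lower of all 1620 genes tested. With mapped reads alone there was 1 (LOC113636628, higher), beside 225 higher and 66 lower of all genes tested. Limma gave 4 at a pseudocount of 0.1 (3 higher and 1 lower) and 5 at 0.5 and at 1 (4 higher and 1 lower). Of these only LOC113636485 was among the 7. Beside them, limma had 251 to 263 of all genes tested higher and 52 to 54 lower. Without TMM factors the counts over all genes thus moved to the higher side as well. As libraries were left out there were 3 to 7, beside 77 to 195 higher and 74 to 206 lower over all genes. There were 4 without transport replicate 2 and 3 without transport replicate 3 or control replicate 2. The median log2 fold change of -0.067 was 0.24 with mapped reads alone, 0.24, 0.26 and 0.21 with limma at pseudocounts of 0.5, 0.1 and 1, and -0.12 to -0.068 as libraries were left out; mapped reads alone and limma use no TMM factors.

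With mapped reads alone, 14 of the 42 estimates turned from below to above 0. The median shift that TMM factors made was -0.30 both over the 42 genes and over all genes tested. Of the 24 genes followed through the alternatives, 6 changed sign in at least 1. With mapped reads alone and with limma at pseudocounts of 0.5, 0.1 and 1, the log2 fold changes were 0.18, 0.20, 0.20 and 0.20 for ubl3, 0.25, 0.26, 0.27 and 0.26 for ube2a, 0.081, 0.21, 0.22 and 0.21 for usp14, and 0.048, 0.083, 0.085 and 0.081 for rnf185; syvn1 had 0.015, 0.016 and 0.014 in the 3 limma fits. As libraries were left out, usp14 ranged from -0.39 to 0.22 and LOC113635172 from -0.77 to 0.70. Whether replicate numbers pair the samples is not stated. Over genes, deviations from the group means had correlations of -0.11, 0.081 and 0.087 between equal numbers, and of -0.17 to 0.14 between unequal numbers. With 3 libraries a group, these values cannot settle whether samples were paired. With the replicate block, 0 of all genes were called and LOC113635172 had -0.072. Over all genes tested, 10 were called, against 154 with DESeq2, 65 without control replicate 3 and 0 to 3 without any other library. The size of the groups and the wide spread of the control libraries limit these tests.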
